A study of Mus musculus with 8 samples.

Results

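Mouse embryonic stem cells (ESCs) forced to express JUN were treated with PFI-3 and BI-9564 together (P+B), and their mRNA was compared with that of cells given DMSO, the solvent. The comparison rests on 4 of the 8 libraries of the series, namely 2 P+B libraries and 2 DMSO libraries, chosen by their labels. The cells were OG2 ESCs (Oct4-GFP transgenic, passage P12, of a mixed background with 129SVJ, C57B6 and CBA parts) of the genotype c-Jun_TetOn, in which doxycycline switches on a JUN transgene. All groups, DMSO included, received 2 µg/ml doxycycline, and the labels give 6 h with doxycycline and compound. The study's supplementary text describes a longer induction of JUN than exposure to the compounds, and which of these holds was not settled. The medium was feeder free and held serum, LIF, PD0325901 (a MEK inhibitor, which blocks ERK signalling) and Chir99021 (a GSK3 inhibitor, which activates Wnt signalling). The labels give neither the concentration of the compounds nor whether the 2 libraries of a group came from separate cultures. The p-values therefore measure only spread between libraries. That spread was estimated over all 8 libraries, with information shared across genes, and not over the 4 compared alone. One inducible line was used, and no library without doxycycline was part of this comparison.

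PFI-3 binds the bromodomains of BRG1 (SMARCA4), SMARCA2 and PBRM1, and BI-9564 binds those of BRD9 and BRD7. All of these proteins are subunits of BAF complexes, which use ATP to move nucleosomes and open chromatin. A bromodomain is a protein module that binds acetylated lysine, as on histone tails at active enhancers and promoters. JUN is a subunit of AP-1, a transcription factor that drives genes of adhesion, wound repair and epithelial growth in many somatic cells, and its induction in ESCs leads them out of pluripotency. The question behind the comparison is which of the genes active in JUN-induced ESCs depend on these bromodomains. Genes of cell-substrate adhesion and the JUN targets that the study names were counted but are not described here. Of the adhesion list, 15 of 49 tested genes fell (30.6%) and 1 rose (2.04%), beside 4.1% and 2.93% of all tested genes. Of the named JUN targets 3 of 3 tested genes fell. The gene lists of this report were chosen with earlier results of these data known. Their shares and medians describe the listed genes and are not tests.

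The values are TPM (a share of transcripts, corrected for transcript length) that the authors made whole numbers, and the depth of the libraries is unknown. A gene was tested where the mean of its 8 values was at least 5, which left 10222 genes. The labelled cell type was checked first. The 12 ESC markers were all detected, with a summed value between 3655 and 5635 over the 8 libraries, and Pou5f1 (OCT4) had 1273 and 1281 in DMSO and 1211 and 1124 in P+B. Of 10 fibroblast markers 6 were at 0 in every library and the summed value lay between 0 and 5. The summed values of 9 primitive endoderm markers (3 to 11), 6 mesoderm markers (2 to 7) and 8 trophoblast markers (19 to 28) were also low. Of 6 blood and macrophage markers 5 were at 0 in every library, and the remaining one was Cd68, a lysosomal protein with 27 and 24 in DMSO and 8 and 15 in P+B (adjusted p = 0.0488, and 0.0637 without the replicate block). Jun itself, for which the table does not separate the transgene from the endogenous gene, had 1970 and 2877 in DMSO and 1569 and 2159 in P+B. It was lower with P+B within each same-numbered pair, and the ranges of the groups overlapped. Its log2 change was −0.37 ± 0.04 (SE, adjusted p = 0.00156, and 0.437 without the replicate block), under the fold threshold. The part of this lower Jun level in the results that follow was not tested.

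P+B lowered more genes than it raised, and the falls were larger. The genes that fell included those for an actin-severing protein (Gsn), an EGF receptor ligand (Hbegf) and several epithelial surface proteins (Emp1, Plet1, Msln). The genes that rose included Sp5, Id3 and Nrarp, counted in the lists of Wnt, BMP and Notch signalling. Sp5 was not called without the replicate block, and Nrarp was at low values. In the BMP list 1 gene rose and 2 fell. With limma on log2(value + 1), all 8 libraries fitted and the replicate number as a block, 719 of 10222 genes differed by 1.5-fold or more with an adjusted p-value below 0.05 (7.03%). Of these, 419 fell (4.1% of the genes tested) and 300 rose (2.93%). A fall of at least 1 on the log2 scale was seen in 215 genes and a rise of that size in 84. At 2 on the log2 scale the numbers were 33 and 6. The median log2 change was −1.02 over the genes that fell and 0.82 over those that rose, beside 0.06 over all tested genes. In 706 of the 719 genes the values of the P+B libraries did not overlap those of DMSO, and the same held for 47.5% of all tested genes. Where groups are said below not to overlap, this describes the values of called genes and adds no support to the calls.

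The genes that fell and those that rose differed in level. The median DMSO value was 46 for genes that fell, 16.25 for genes that rose and 29.5 for all tested genes. Where the mean was 100 or more (1627 genes), 60 fell (3.69%) and 4 rose (0.246%), while among the 2111 genes with a mean from 10 to 20, 82 fell (3.88%) and 96 rose (4.55%). In 90 of the 300 genes that rose the DMSO mean was under 10, where the loss of decimals matters most. Both counts, and that of the rises more, depended on single libraries. Without the replicate block 278 genes fell and 131 rose, and all of these 409 genes were among the 719. When P+B replicate 2 was left out, 185 genes fell and 15 rose, and without P+B replicate 1 the counts were 209 and 39. When DMSO replicate 1 was left out 187 genes fell and 56 rose, and without DMSO replicate 2 the counts were 181 and 40. The split between falls and rises also moved with the scaling, from 58.3% falls to 75.6% (567 falls and 183 rises) with each library centred on its median and to 69.7% (468 and 203) after quantile normalization. A fit to the 4 libraries alone, with the block, called 0 genes at the same thresholds (2216 at an unadjusted p under 0.05), and an exact permutation test of 2 against 2 libraries cannot give a p-value below 0.333.

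**Figure D1:**
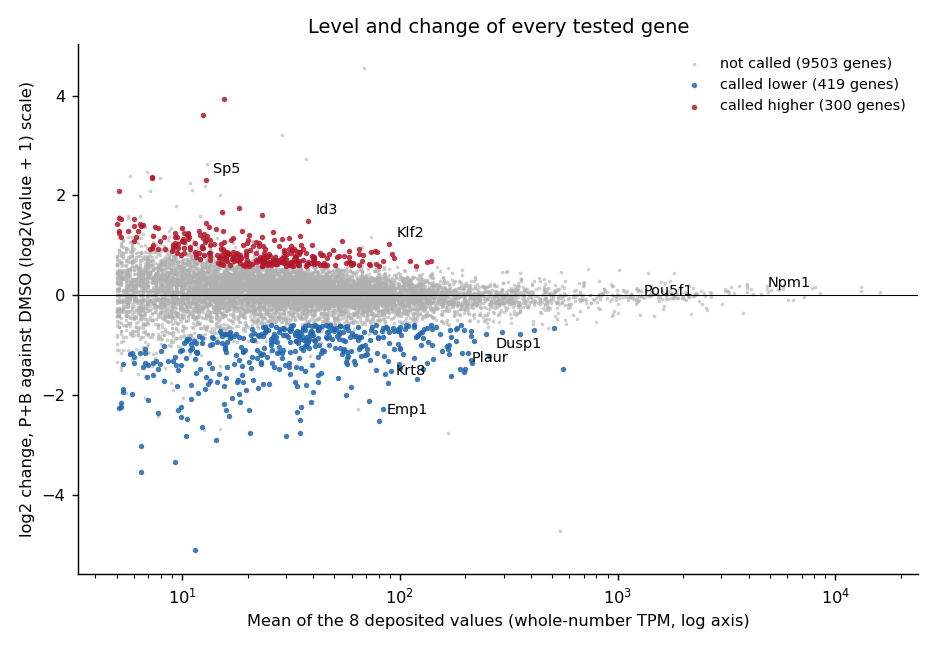
Log2 change of P+B against DMSO (y axis, log2(value + 1) scale) against the mean of the 8 deposited values (x axis, log axis) for 10222 genes, with the 419 genes called lower in blue and the 300 called higher in red. All but 4 of the red points lie at means under 100, while 60 of the blue points lie at means of 100 or more.

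Some genes for growth factors, and for proteins that carry or inhibit their signals, fell. Ligands of the EGF family are made as membrane proteins, are cut from the cell surface and activate ERBB receptors. Of 7 tested genes of this list 3 fell (42.9%, against 4.1% of all genes) and none rose, with a list median of −0.52. Hbegf, a ligand of EGFR, had 45 and 32 in DMSO and 8 and 6 in P+B. Both P+B values lay below both DMSO values, and the fall was 4.91-fold (log2 change −2.30 ± 0.15, adjusted p = 0.00035). Nrg1, a ligand of ERBB3 and ERBB4, went from 26 and 25 to 8 and 6, with a log2 change of −1.74 ± 0.20 (adjusted p = 0.00242). Errfi1, a feedback inhibitor of EGFR, was at 63 and 62 in DMSO and 28 and 27 in P+B (log2 change −1.16 ± 0.14, adjusted p = 0.00293). Ligand and inhibitor genes therefore fell together, each without overlap between the groups. In the list of FGF, PDGF, VEGF, IGF and HGF signalling 2 of 14 tested genes fell (14.3%). These were Fgfbp1, which carries FGFs out of the matrix (115 and 118 in DMSO, 48 and 51 in P+B, adjusted p = 0.00264), and Pdgfc, a PDGF ligand (36 and 34 in DMSO, 14 and 18 in P+B, adjusted p = 0.0061). The median of that list, −0.05, was close to that of all genes.

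Ackr3, an atypical receptor that removes the chemokine CXCL12, had 26 and 16 in DMSO and 5 and 1 in P+B (log2 change −2.63 ± 0.26, adjusted p = 0.00148). Vgf, a precursor of secreted peptides, had 14 and 18 in DMSO and 3 and 2 in P+B (log2 change −2.28 ± 0.31, adjusted p = 0.00498). Nrp2, a receptor for semaphorins and VEGFs, had 34 and 25 in DMSO and 7 and 10 in P+B (log2 change −1.69 ± 0.26, adjusted p = 0.0078). In its list of semaphorins, plexins, netrins and slits 2 of 14 tested genes fell (14.3%, against 4.1% of all genes). In that list 1 gene rose (7.14%, against 2.93%) and the median was 0.20. The P+B values of Ackr3, Vgf and Nrp2 were below the DMSO values. Tnfrsf12a, the receptor of the cytokine TWEAK, was more abundant, with 179 and 210 in DMSO and 68 and 94 in P+B (log2 change −1.27 ± 0.10, adjusted p = 0.000686). It was 1 of 3 genes that fell among 14 of NF-kB and cytokine signalling (21.4%). The others were Nfkbia, the inhibitor of NF-kB (42 and 36 in DMSO, 23 and 25 in P+B, adjusted p = 0.0188), and Tnfrsf21, a death-domain receptor (29 and 23 in DMSO, 15 and 14 in P+B, adjusted p = 0.0263, and 0.0706 without the block).

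Genes of the epithelial cytoskeleton and of cell junctions fell as well. Keratins are intermediate filaments that assemble as pairs of a type I and a type II chain and hold epithelial cells together through desmosomes. Of 18 tested genes of keratins, other intermediate filaments and their anchors 9 fell (50%, against 4.1% of all genes), none rose, and the median was −0.55. The list was chosen with earlier results known, so its share is a description only. Krt18, a type I keratin, had 103 and 89 in DMSO and 27 and 20 in P+B, a fall of 3.99-fold (SE 0.12 on the log2 scale, adjusted p = 0.000252). Krt8, its partner and its neighbour on chromosome 15 (GRCm38, Krt8 at 101996698 to 102004482 and Krt18 at 102028180 to 102032027), is a type II keratin and had 163 and 114 in DMSO and 53 and 30 in P+B, a fall of 3.36-fold (log2 change −1.75 ± 0.12, adjusted p = 0.000375). Both chains of the pair fell, and both P+B values lay below both DMSO values. Dsp, desmoplakin, which ties keratins to desmosomes, had 48 and 56 in DMSO and 13 and 17 in P+B (log2 change −1.74 ± 0.12, adjusted p = 0.000365). Krt19, another type I keratin, was at 27 and 18 in DMSO and 11 and 4 in P+B, but its call was lost without the block (adjusted p = 0.0239, and 0.0557 without it).

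Of 31 tested genes of claudins, cadherins and other junction proteins 8 fell (25.8%, against 4.1% of all genes), none rose, and the median was −0.49. Cldn6, a claudin of tight junctions in early epithelia, had 103 and 143 in DMSO and 29 and 26 in P+B (4.3-fold lower, log2 change −2.10 ± 0.16, adjusted p = 0.00054). It was well expressed in DMSO, and its groups did not overlap. Ctnnd2, a catenin of adherens junctions, was near the floor with P+B, with 12 and 11 in DMSO and 3 and 3 in P+B (adjusted p = 0.00755).

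Among the lists described here, the largest share of falls was that of annexins and S100 proteins, calcium-dependent proteins that bind phospholipid and each other at the plasma membrane and take part in its repair. The list also holds the scaffold genes Ahnak and Ahnak2, which are neither annexins nor S100 proteins. Of 14 tested members 9 fell (64.3%), Ahnak and Ahnak2 among them, none rose, and the median was −0.99. Without the block 5 of the 9 were called. Ahnak, a giant scaffold bound by an annexin and an S100 protein, had 140 and 122 in DMSO and 49 and 42 in P+B (log2 change −1.51 ± 0.09, adjusted p = 0.000252, and 0.00144 without the block). S100a6 had 387 and 151 in DMSO and 148 and 51 in P+B (log2 change −1.46 ± 0.08, adjusted p = 0.000187). Its replicate 1 lay far above its replicate 2 in both groups, so P+B replicate 1 came close to DMSO replicate 2, and without the block it was not called (adjusted p = 0.271). Anxa2, which links membranes to actin, had a like spread, with 118 and 90 in DMSO and 63 and 27 in P+B (log2 change −1.30 ± 0.17, adjusted p = 0.00413, and 0.125 without the block).

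Membrane and lipid genes fell beside them. Of 21 tested genes of caveolae, phospholipid handling and membrane repair 8 fell (38.1%) and 1 rose (4.76%), with a median of −0.39. The shares of all genes were 4.1% and 2.93%. Plin2, the coat protein of lipid droplets, had 290 and 219 in DMSO and 87 and 76 in P+B (3.07-fold lower, log2 change −1.62 ± 0.08, adjusted p = 0.000187). Myof (myoferlin), which takes part in membrane fusion and repair, had 64 and 50 in DMSO and 23 and 16 in P+B (adjusted p = 0.00054). Ptrf (cavin-1), a coat protein of caveolae, had 152 and 139 in DMSO and 62 and 44 in P+B (log2 change −1.46 ± 0.10, adjusted p = 0.000425). In each of the 3 genes the groups did not overlap. Pla2g7, a secreted phospholipase that degrades platelet-activating factor, had 63 and 58 in DMSO and 16 and 9 in P+B (log2 change −2.24 ± 0.18, adjusted p = 0.000623).

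Genes of the plasminogen system, which turns plasminogen into the protease plasmin at the cell surface, fell as well. Of 22 tested genes of this system and of matrix proteases 6 fell (27.3%, against 4.1% of all genes) and none rose, with a median of −0.18. Plaur, the receptor of urokinase, had 304 and 255 in DMSO and 107 and 92 in P+B (2.79-fold lower, log2 change −1.48 ± 0.08, adjusted p = 0.000233). Timp1, an inhibitor of matrix metalloproteases, had 194 and 191 in DMSO and 81 and 59 in P+B (adjusted p = 0.000792). The protease gene Mmp14 was lower in level and fell less, from 16 and 15 in DMSO to 8 and 6 in P+B (log2 change −1.06 ± 0.23, adjusted p = 0.0262). A receptor, an inhibitor and a protease were thus among the genes that fell, none with overlap between the groups.

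Emp1, a membrane protein of epithelia (GRCm38 chromosome 6, 135362545 to 135383173), had 136 and 141 in DMSO and 21 and 26 in P+B, a fall of 5.72-fold (log2 change −2.52 ± 0.11, adjusted p = 0.000187, and 0.000259 without the block). Plet1, a placenta-expressed surface protein, had 163 and 134 in DMSO and 29 and 31 in P+B (log2 change −2.26 ± 0.12, adjusted p = 0.000187). A gene on the other strand, Plet1os, overlaps it, and the sources used here do not say that counting used strand. Lgals3 (galectin-3), a sugar-binding protein, had 325 and 217 in DMSO and 121 and 68 in P+B (log2 change −1.54 ± 0.09, adjusted p = 0.000269). Msln (mesothelin) had 22 and 19 in DMSO and 4 and 2 in P+B (log2 change −2.47 ± 0.28, adjusted p = 0.00237), and Sdcbp2 (syntenin-2), which binds syndecans inside the cell, had 13 and 30 in DMSO and 4 and 2 in P+B (log2 change −2.43 ± 0.42, adjusted p = 0.012). In each of these genes every P+B value lay below every DMSO value, as in 409 of the 419 genes that fell. Of 28 tested genes of surface antigens and tetraspanins 7 fell (25%, against 4.1% of all genes) and 1 rose (3.57%, against 2.93%). Without the block 3 of the 7 were called.

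Promoters of genes that fell were searched for the letters TGANTCA, the form of the AP-1 site, on both strands from 250 bases before to 50 after the start site (RefSeq, GRCm38.p6, first listed start of each gene). Of the genes described here that fell, 7 held a match, namely Emp1, Plaur, Plet1, Sdcbp2, Anxa2, Clic1 and Cd68. The stretch around it is shown for Plaur, Plet1 and Sdcbp2 as examples, chosen after the matches were known. Capitals mark the match, the strand is plus in all 3 genes, and the match begins 69, 144 and 44 bases before the start site respectively. 
Plaur (chr7:24462374-24462460): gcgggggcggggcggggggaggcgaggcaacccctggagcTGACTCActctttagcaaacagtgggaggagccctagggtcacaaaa
Plet1 (chr9:50494341-50494427): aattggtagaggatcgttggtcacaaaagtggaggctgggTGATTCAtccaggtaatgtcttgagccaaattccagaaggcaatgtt
Sdcbp2 (chr2:151572539-151572622): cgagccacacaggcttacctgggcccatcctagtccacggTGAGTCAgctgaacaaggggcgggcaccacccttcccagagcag
In Plaur and Sdcbp2 the free middle base gives the usual AP-1 site, and in Plet1 it does not. A match was held by 32 of the 325 genes that fell and had a listed promoter (9.85%), by 7 of 230 that rose (3.04%), by 338 of 7988 tested genes (4.23%) and by 7.93% of all 27025 listed promoters. A promoter was listed for 77.6% of the genes that fell and 76.7% of those that rose, under the 80% set as a minimum, so a comparison of these shares is void and they are given as a description of the listed promoters. A match is a run of letters and not a bound site. In structure, the median length from start to end was 24084 bases for genes that fell, 24443 for genes that rose and 22615 for all tested genes, and protein-coding genes made up 96.8%, 94.6% and 95.4% (GENCODE M21).

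Some genes of dual-specificity phosphatases fell. Dual-specificity phosphatases remove phosphate from ERK, JNK and p38 kinases, and many are induced by the kinases that they switch off. Of the 16 tested genes of this symbol family 6 fell (37.5%, against 4.1% of all genes) and 1 rose (6.25%, against 2.93%), with a median of −0.33. Dusp1, Dusp5 and Dusp14 were well expressed. Dusp1 had 331 and 350 in DMSO and 156 and 139 in P+B (log2 change −1.20 ± 0.08, adjusted p = 0.000371), and Dusp14 had 280 and 315 in DMSO and 122 and 111 in P+B (log2 change −1.34 ± 0.08, adjusted p = 0.000272). Dusp5, a phosphatase of nuclear ERK, had 77 and 86 in DMSO and 34 and 28 in P+B (log2 change −1.37 ± 0.12, adjusted p = 0.00083). In all 3 genes the P+B values lay below the DMSO values. Of 20 tested genes of a list of ERK feedback and ETS factors, which does not hold Dusp14, 7 fell (35%) and 1 rose (5%). The list median was 0.08, close to 0.06 over all genes. The rise was of Spry2 (log2 change 0.65), which was not called without the block. The medium held a MEK inhibitor, and ERK activity was not tested. Ier3, an early-response gene of this list, had 20 and 22 in DMSO and 5 and 5 in P+B (log2 change −1.87 ± 0.29, adjusted p = 0.00775).

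Of 14 tested AP-1 and other bZIP genes outside the named JUN targets 2 fell (14.3%, against 4.1% of all genes). Atf3, a stress-induced bZIP factor, had 29 and 32 in DMSO and 10 and 13 in P+B (log2 change −1.34 ± 0.13, adjusted p = 0.00151). Junb, a relative of JUN, had 48 and 45 in DMSO and 26 and 29 in P+B (log2 change −0.74 ± 0.15, adjusted p = 0.0224). Myc, which drives growth and ribosome production, had 40 and 32 in DMSO and 16 and 15 in P+B (2.23-fold lower, log2 change −1.16 ± 0.14, adjusted p = 0.00253). It was the 1 gene called among 21 of the MYC, MAX and MXD network (4.76% lower), a share near the 4.1% of all genes. Genes of ribosome biogenesis had no call in 61 tested genes, and their median was −0.13. Gadd45a, a stress-induced regulator of the cell cycle, had 87 and 112 in DMSO and 46 and 47 in P+B (log2 change −1.07 ± 0.10, adjusted p = 0.00128). Snai3, a zinc finger factor of the Snail family, had 16 and 16 in DMSO and 5 and 5 in P+B (adjusted p = 0.005). It lies within the span of the readthrough gene Gm20388, with which it may share reads. Gm20388 lies on the other strand and was called higher.

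**Figure D2:**
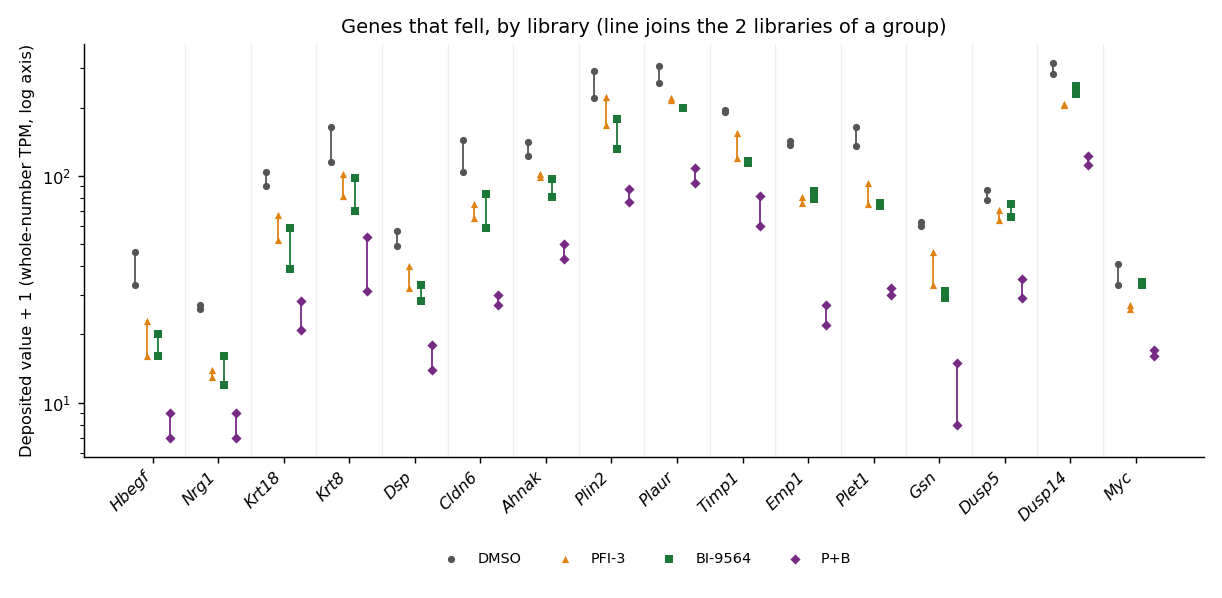
Deposited value + 1 (log axis) in each of the 8 libraries for 16 genes that fell with P+B, with a line joining the 2 libraries of a group. In every gene shown both P+B values lie below both DMSO values, as in 409 of the 419 genes called lower.

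Of 51 tested actin cross-linkers and contractile proteins 7 fell (13.7%, against 4.1% of all genes) and none rose, with a median of −0.17. Gsn (gelsolin), which cuts actin filaments in response to calcium, had 62 and 59 in DMSO and 14 and 7 in P+B (5.61-fold lower, log2 change −2.49 ± 0.21, adjusted p = 0.000715). Myo1c, a motor that links actin to membranes, had 97 and 67 in DMSO and 45 and 30 in P+B (adjusted p = 0.00253). Of 30 tested channels and transporting ATPases 6 fell (20%, against 4.1% of all genes) and 1 rose (3.33%, against 2.93%). Atp1b1, a subunit of the sodium pump, had 201 and 182 in DMSO and 95 and 97 in P+B (log2 change −0.99 ± 0.07, adjusted p = 0.00054), and Clic1, a chloride channel protein, had 141 and 126 in DMSO and 73 and 55 in P+B (adjusted p = 0.00253). Among 156 tested solute carriers the calls went both ways, with 7 lower (4.49%, against 4.1% of all genes) and 8 higher (5.13%, against 2.93%), and none of the 8 is among the genes named by the rule used here. Slc20a1, a phosphate transporter, had 211 and 219 in DMSO and 101 and 89 in P+B (log2 change −1.17 ± 0.08, adjusted p = 0.000445). Slc7a3 and Slc38a1, carriers of cationic and neutral amino acids, had 56 and 62 against 29 and 25, and 54 and 57 against 26 and 29, respectively (adjusted p = 0.00417 and 0.00151). Both belong to the list of ATF4 targets and amino acid metabolism, in which 5 of 34 tested genes fell (14.7%) and 3 rose (8.82%).

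The genes that rose included several that cells use to read or limit developmental signals. Wnt signalling stabilises beta-catenin, which with TCF factors activates target genes, some of which feed back on the pathway. Of 19 tested genes of Wnt response and TCFs 5 rose (26.3%, against 2.93% of all genes) and 1 fell, with a median of 0.27. This share too is a description, as the list was chosen with earlier results known. Sp5, a zinc finger factor and direct Wnt target, had 3 and 8 in DMSO and 22 and 37 in P+B (4.93-fold higher, log2 change 2.30 ± 0.21, adjusted p = 0.00104). Axin2, a negative feedback gene of the pathway, had 17 and 26 in DMSO and 42 and 57 in P+B (log2 change 1.18 ± 0.14, adjusted p = 0.00258). In both genes replicate 2 was higher than replicate 1 in each group, and neither was called without the block (adjusted p = 0.0513 and 0.06). None of the 5 rises of this list was called without it. Apcdd1, an inhibitor of Wnt receptors, had 3 and 3 in DMSO and 9 and 8 in P+B, close to the lowest values the table can hold. The gene that fell, Wnt7b, codes for a ligand, and it had 12 and 6 in DMSO and 3 and 0 in P+B (adjusted p = 0.0134, and 0.141 without the block).

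Id3 and the Notch genes followed. ID proteins bind bHLH factors and keep them off DNA, and in ESCs they are induced by BMP. Id3 had 20 and 24 in DMSO and 71 and 56 in P+B, a rise of 2.8-fold (log2 change 1.48 ± 0.17, adjusted p = 0.00243, and 0.00603 without the block). It was the 1 rise (10%, against 2.93% of all genes) among 10 tested genes of BMP signalling and ID proteins. In that list 2 genes fell (20%, against 4.1%) and the median was 0.36. Notch receptors are cut after they meet a ligand on a neighbouring cell, and the freed part activates target genes. Of 11 tested Notch genes 4 rose (36.4%) and none fell, with a median of 0.29. Notch1, a receptor, had 12 and 10 in DMSO and 19 and 21 in P+B (log2 change 0.81 ± 0.18, adjusted p = 0.0273). Jag2, a ligand, had 11 and 13 in DMSO and 23 and 20 in P+B (adjusted p = 0.0406, and 0.0591 without the block). Nrarp, a target that limits Notch signalling, had 5 and 3 in DMSO and 13 and 11 in P+B (log2 change 1.40 ± 0.29, adjusted p = 0.0241), and Numb, an inhibitor of the receptor, had 29 and 25 in DMSO and 45 and 48 in P+B (adjusted p = 0.0374, and 0.0557 without the block). A receptor, a ligand, a target and an inhibitor were thus higher, and the DMSO values of all but Numb were under 15.

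Some genes of the p53 response rose. The factor p53 activates genes that halt the cell cycle and repair DNA after damage. Of 36 tested genes 6 rose (16.7%, against 2.93% of all genes) and 1 fell (2.78%, against 4.1%), and the median was 0.37. Btg2, which slows cell division and promotes mRNA decay, had 18 and 12 in DMSO and 36 and 38 in P+B (2.42-fold higher, log2 change 1.27 ± 0.18, adjusted p = 0.00606). Ercc5 (XPG), a nuclease of nucleotide excision repair, had 13 and 14 in DMSO and 28 and 36 in P+B (log2 change 1.18 ± 0.14, adjusted p = 0.00306). Trp53inp1, a p53-induced nuclear protein, had 45 and 28 in DMSO and 86 and 68 in P+B (log2 change 1.08 ± 0.13, adjusted p = 0.00253, and 0.0773 without the block). The P+B values of these genes all lay above the DMSO values. Perp, a desmosomal membrane protein and p53 target, went the other way, with 82 and 59 in DMSO and 49 and 27 in P+B (adjusted p = 0.0111, and 0.111 without the block). Gadd45a, which also fell (see above), was counted with the G1 regulators and not in this list. No gene was called among 24 tested apoptosis regulators, a small list beside the 7.03% called of all tested genes.

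Among 18 tested replication-dependent and variant histone genes 2 rose (11.1%, against 2.93% of all genes) and none fell, and the median was 0.34. H1fx, a variant linker histone that binds DNA between nucleosomes, had 52 and 52 in DMSO and 95 and 100 in P+B (1.86-fold higher, log2 change 0.89 ± 0.10, adjusted p = 0.00252). H1f0, the linker histone of slowly dividing cells, had 25 and 22 in DMSO and 38 and 50 in P+B (log2 change 0.87 ± 0.16, adjusted p = 0.0168). Most replication-dependent histone mRNAs have no poly(A) tail, and the libraries were made from RNA enriched with oligo-dT.

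LIF signals through STAT3 in ESCs, and this list moved in both directions. Of 19 tested genes 4 rose (21.1%, against 2.93% of all genes) and 2 fell (10.5%, against 4.1%). Pim2, a kinase, had 16 and 17 in DMSO and 26 and 27 in P+B (adjusted p = 0.0286). Il6ra, a receptor chain for IL-6, fell from 25 and 23 in DMSO to 7 and 10 in P+B (log2 change −1.41 ± 0.20, adjusted p = 0.00518). Of 38 tested genes of sterol and fatty acid synthesis 4 rose (10.5%) and none fell, with a median of 0.25. Dhcr7, which makes cholesterol in the last step of its synthesis, had 28 and 26 in DMSO and 46 and 66 in P+B (log2 change 1.00 ± 0.20, adjusted p = 0.0188). Cyp51, the lanosterol demethylase, had 26 and 28 in DMSO and 39 and 48 in P+B (adjusted p = 0.0161). The other sterol genes called were Mvd and Mvk, neither of them called without the block (adjusted p = 0.0607 and 0.0646). Mvd lies within the span of Gm20388, on the other strand. Of 49 tested lysosome and autophagy genes 6 rose (12.2%) and 1 fell (2.04%), and 1 of the 6 was called without the block.

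Many of the larger rises were at low level. Among the genes called with and without the block, predicted genes, clones, date-like symbols, adhesion genes and named JUN targets were left out of the next 2 sets. The 15 genes with the largest rises had DMSO means between 1.5 and 22. Those with the largest falls, also 15, had DMSO means between 10.5 and 148.5. Of the genes left out, Gm20388 and Gm9830 had larger log2 changes, of 3.93 and −5.10. Zic2, a zinc finger factor of the formative state, had 6 and 6 in DMSO and 13 and 19 in P+B (log2 change 1.26 ± 0.22, adjusted p = 0.0124). Mybl1, a MYB family factor of germ cells, had 8 and 6 in DMSO and 17 and 25 in P+B (log2 change 1.45 ± 0.25, adjusted p = 0.012). Espn, an actin bundler of sensory cells, had 11 and 10 in DMSO and 27 and 27 in P+B (log2 change 1.29 ± 0.19, adjusted p = 0.0061). Each of them was called without the block as well. Tef, a bZIP factor of the circadian clock, had 7 and 7 in DMSO and 19 and 18 in P+B, and Rfxap, a subunit of the factor that activates MHC class II genes, had 17 and 7 in DMSO and 34 and 37 in P+B (adjusted p = 0.00947 and 0.0293). Dzip1, a protein of primary cilia, had 3 and 2 in DMSO and 8 and 10 in P+B (adjusted p = 0.0202), and Sgk3, a kinase, had 3 and 3 in DMSO and 10 and 9 in P+B (adjusted p = 0.0158).

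**Figure D3:**
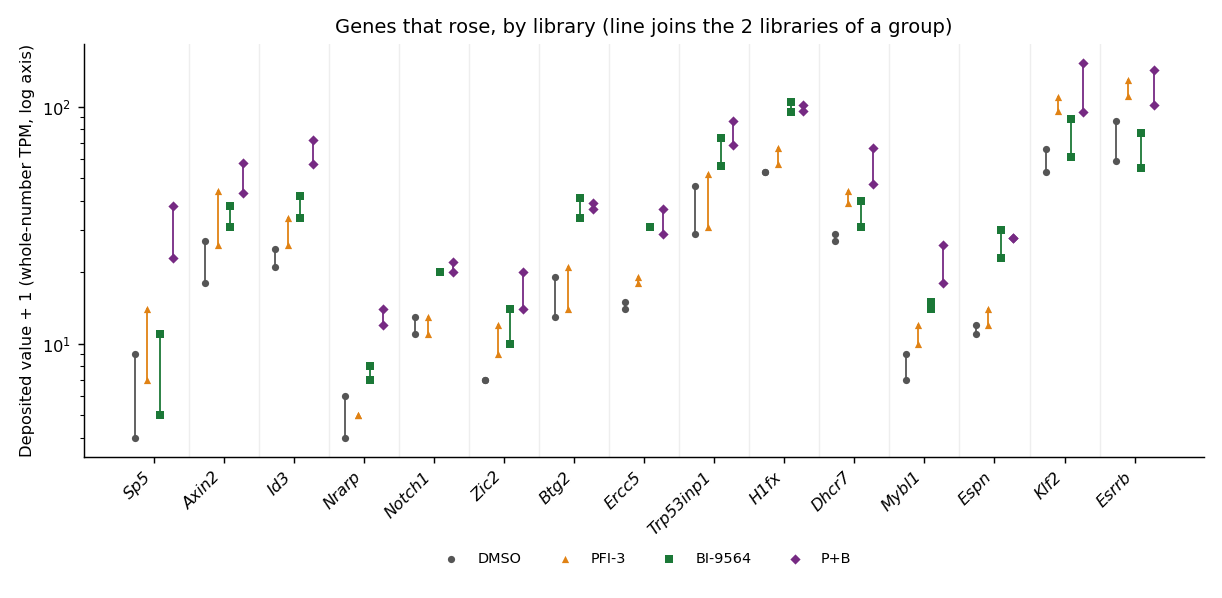
Deposited value + 1 (log axis) in each of the 8 libraries for 15 genes that rose with P+B, with a line joining the 2 libraries of a group. Both P+B values lie above both DMSO values in every gene shown, as in 297 of the 300 genes called higher. Most of the genes shown lie at values under 100.

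Pluripotency genes moved in both directions. Of 21 tested naive pluripotency genes 3 fell (14.3%, against 4.1% of all genes) and 2 rose (9.52%, against 2.93%), with a median of −0.19. Of 25 core pluripotency and LIN28 genes 3 fell (12%) and none rose, with a median of −0.03. Klf2, a Krüppel-like factor of the naive state, had 65 and 52 in DMSO and 152 and 94 in P+B (2.04-fold higher, log2 change 1.03 ± 0.12, adjusted p = 0.00284), and Esrrb, a nuclear receptor that holds ESCs in that state, had 86 and 58 in DMSO and 141 and 100 in P+B (log2 change 0.74 ± 0.10, adjusted p = 0.00486). Neither was called without the block (adjusted p = 0.0568 and 0.12). Pecam1, an adhesion molecule of naive ESCs, had 53 and 53 in DMSO and 25 and 25 in P+B (log2 change −1.05 ± 0.10, adjusted p = 0.00139), Tdgf1, a co-receptor of Nodal, had 163 and 156 in DMSO and 82 and 84 in P+B (log2 change −0.93 ± 0.11, adjusted p = 0.0025), and Jam2, a junctional adhesion molecule, had 90 and 90 in DMSO and 51 and 45 in P+B (adjusted p = 0.00426). Manba, a lysosomal mannosidase counted in the naive list, had 85 and 88 in DMSO and 33 and 35 in P+B (adjusted p = 0.00337). Nanog (71 and 40 in DMSO, 68 and 46 in P+B, log2 change 0.07 ± 0.12, adjusted p = 0.746) was not called. Of the markers of other lineages, Tubb3, a neuronal tubulin, rose from 54 and 69 in DMSO to 87 and 103 in P+B (adjusted p = 0.00999), while the other neuroectoderm markers stayed at 3 or less. Tubb3 also lies within the span of Gm20388, on the same strand, and Gm20388 itself was called higher (log2 change 3.93).

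Genes of the BAF subunits themselves were also counted. Of 24 tested subunit genes none fell and 2 rose (8.33%, against 2.93% of all genes), with a median of 0.07. The rises were of Bcl7a (9 and 10 in DMSO, 15 and 20 in P+B, adjusted p = 0.0335) and Dpf1 (11 and 15 in DMSO, 25 and 21 in P+B, adjusted p = 0.0454), both at low values and neither called without the block (adjusted p = 0.0627 and 0.0637). Of the genes whose products the compounds bind, Smarca4 had 123 and 136 in DMSO and 136 and 147 in P+B (log2 change 0.13 ± 0.07, adjusted p = 0.246). Pbrm1 had 40 and 47 against 45 and 46, Brd7 had 90 and 66 against 74 and 70, and Brd9 had 25 and 25 against 23 and 23, with adjusted p-values of 0.702, 0.746 and 0.636. Smarca2 was under the minimum level for a test.

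Many housekeeping groups had no call in either direction. These were oxidative phosphorylation (0 of 89 tested genes), cytosolic ribosomal proteins (0 of 80), ribosome biogenesis (0 of 61), translation initiation factors (0 of 53) and DNA replication at G1/S (0 of 49). The medians of these groups lay between −0.13 and 0.10. Their median levels lay between 97.25 and 1479.87. Of all tested genes with a mean of 100 or more, 3.69% fell and 0.246% rose. Signalling and chromatin groups without a call included interferon response (0 of 16), BET proteins and elongation factors (0 of 23) and histone acetylation and H3K27 methylation enzymes (0 of 28). Over all tested genes 7.03% were called, so the lack of a call in groups this small says little about them. Brd2, a BET protein, had 254 and 268 in DMSO and 370 and 358 in P+B, with a log2 change of 0.48 ± 0.06 (adjusted p = 0.00337) that was under the fold threshold. Among 57 tested genes of G2/M and mitosis 2 rose, Cdc25c and Kif18b (3.51%, near the 2.93% of all genes). Of the 719 genes called, 214 (29.8%) belonged to a written list, as did 16.2% of all tested genes. The written lists in this count are the 61 lists, the adhesion list, the named JUN targets and the cell type markers.

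**Figure D4:**
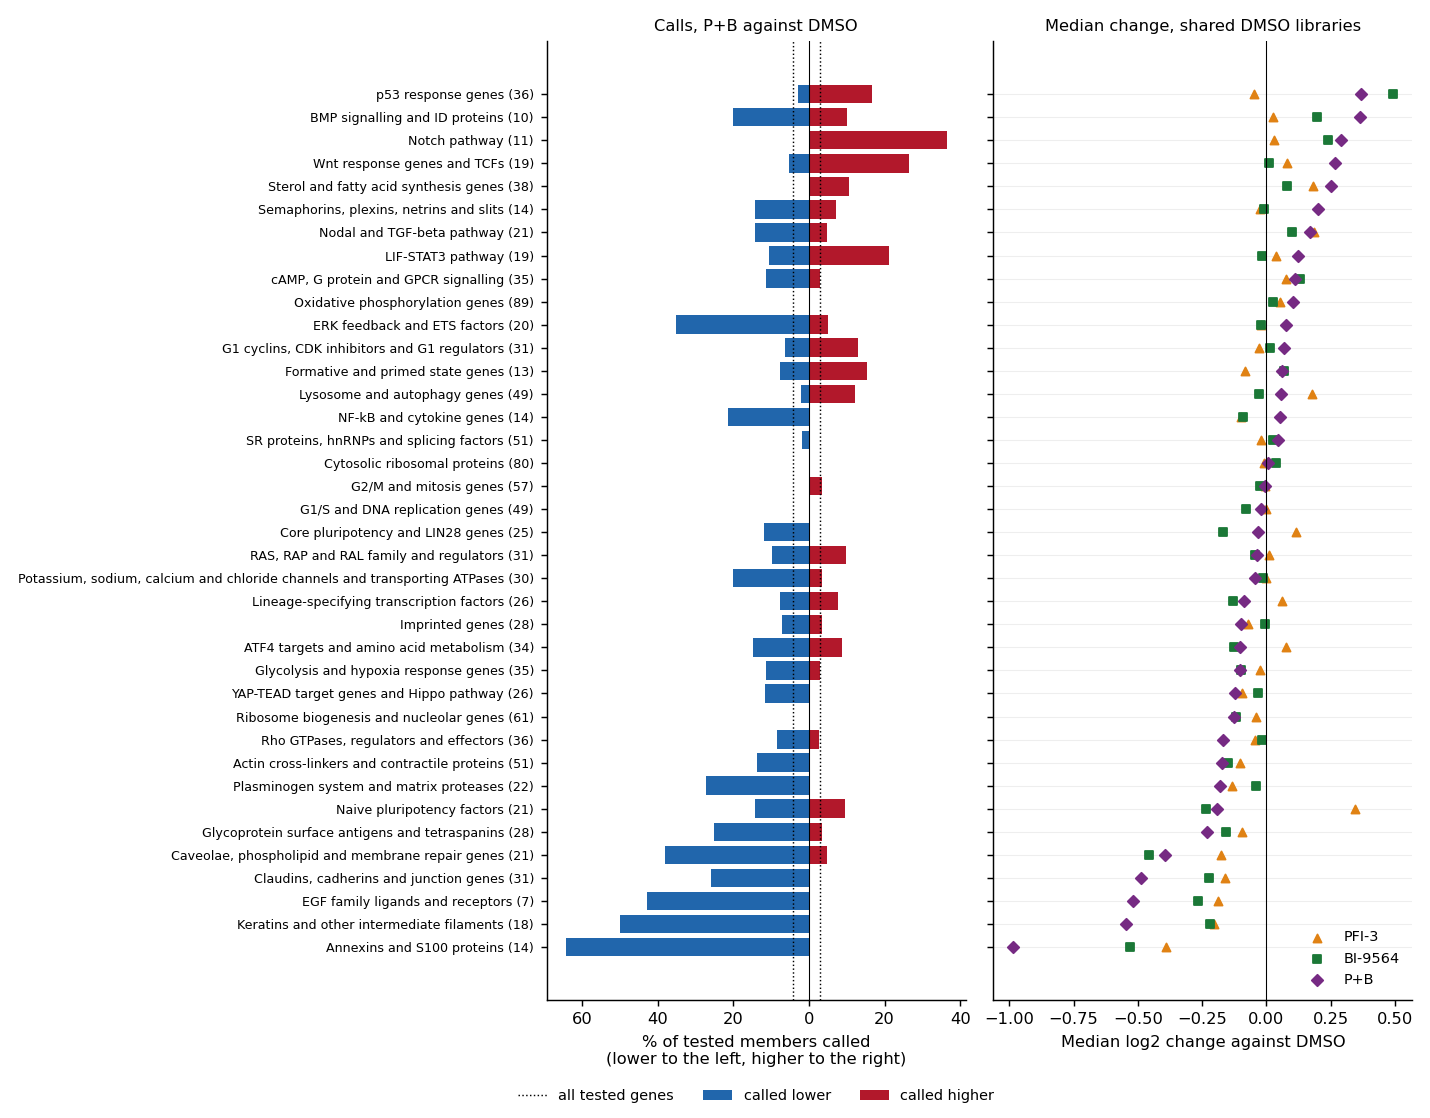
Left, share of the tested members of 38 gene lists (number tested in brackets) that were called lower (blue, to the left) or higher (red, to the right) with P+B, with dotted lines at 4.1% and 2.93% for all tested genes. The lists shown were picked for having several called genes or many tested members. Smaller lists with few or no calls are left out, so the bars are not a fair sample of all lists. Right, median log2 change of the same lists for PFI-3, BI-9564 and P+B, each against the same DMSO libraries. Annexins and S100 proteins are lowest, at −0.99, and p53 response genes highest, at 0.37, for P+B.

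The libraries with a single compound share the DMSO libraries with P+B, and the sources used here do not settle how much of either compound the P+B cells received, so values are given side by side and no comparison is made. Over the 419 genes that fell with P+B the median log2 change was −0.33 for PFI-3 against DMSO and −0.56 for BI-9564 against DMSO, and over the 300 that rose it was 0.32 and 0.55. Hbegf stood at 22 and 15 in the PFI-3 libraries and at 19 and 15 in the BI-9564 libraries. For Krt18 the PFI-3 libraries gave 66 and 51 and the BI-9564 libraries 58 and 38, and for Emp1 these values were 80 and 75, then 78 and 85. For these 3 genes both single-compound groups stood between DMSO and P+B. Atf3 gave 17 and 20 in the PFI-3 libraries against 29 and 34 in the BI-9564 libraries, and Btg2 gave 20 and 13 against 40 and 33. The list medians for p53 response genes were −0.05 for PFI-3 and 0.49 for BI-9564, and those for naive pluripotency genes were 0.35 and −0.24. Esrrb gave 128 and 110 in the PFI-3 libraries against 76 and 54 in the BI-9564 libraries.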

How the data were processed

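Per the labels, RNA was enriched with oligo-dT and made into libraries with a VAHTS mRNA-seq V2 kit. The submitters' processing notes name bcl2fastq, Bowtie2 2.2.5, RSEM 1.3.0 and mm10. The authors deposited 1 table of whole-number scores, which are TPM with the decimals apparently dropped, since each library sums to 991574 to 991897. Counts and depth are not used here, so no count test, interval or limit at 0 could be given, and values near 0 are coarse.

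Log2(value + 1) was fitted with limma 3.58.1 in R 4.3.3 over all 8 libraries (2 per group), with the replicate number as a block, a trended prior and Benjamini-Hochberg adjustment over 10222 genes with a mean of at least 5. Genes were called where the adjusted p was below 0.05 and the change 1.5-fold or more. The block was set in advance, because the comparison takes same-numbered libraries as pairs. Differences between replicates correlated at 0.143 to 0.236 over the 6 pairs of groups. The fit was tested on simulated data. Alternatives were no block, other pseudocounts, filters, scalings and thresholds, no trend, the 4 libraries alone and leaving out each library.

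Named genes were the 15 largest falls and 15 largest rises called with and without the block (without predicted genes, adhesion genes and named JUN targets), up to 4 called genes of each of 61 lists and 19 symbol families, cell type markers and BAF subunits. The comparison and the lists were chosen with earlier results of these data known. Gene positions are from GENCODE M21 and promoters from RefSeq, both on GRCm38. Some named genes are not reported here.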

Additional observations from a re-analysis of the deposited data

How the results depend on the processing

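No gene called with P+B changed direction in any of the alternatives tried, but the number of calls depended on the model and on single libraries. Without the replicate block 409 genes were called (131 higher, 278 lower), all of them among the 719. With only the 4 libraries compared, 0 genes were called. The counts were 475 (174 higher) at a mean of at least 20, 401 (113 higher) with no filter on low values, 298 (56 higher, 242 lower) at an adjusted p under 0.01, and 1190 (502 higher, 688 lower) with no fold threshold. With each library centred on its median 183 genes rose. Leaving out 1 library at a time gave 200 to 545 genes called, 15 to 189 higher and 181 to 356 lower, with the lowest counts of calls and of rises without P+B replicate 2. The other alternatives (pseudocounts of 0.5 and 5, a mean of at least 1, quantile normalization and no trend) gave 644 to 723 calls. Of 122 genes named by the rule and called lower, 42 were called in every alternative but the fit to 4 libraries, and of 68 called higher, 2 were. The depth of the libraries is unknown, and decimals missing from the values limit what can be said of genes with values under 10. The causes of these differences were not tested, except that fewer libraries leave fewer degrees of freedom.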

Other observations

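Of 35 tested genes of glycolysis and the hypoxia response 4 fell (11.4%) and 1 rose (2.86%), with a median log2 change of −0.10. Pfkfb3, which makes an activator of glycolysis, fell from 19 and 24 in DMSO to 10 and 10 in P+B (log2 change −1.02 ± 0.19, adjusted p = 0.015). Of 27 tested heat shock chaperones 2 fell (7.41%), with a median of −0.21. Of 37 NRF2 targets and metallothioneins 1 fell and 1 rose (2.7% each), with a median of −0.12. Of 28 tested genes of the unfolded protein response 1 fell (3.57%). The NRF2 and unfolded protein lists have shares below those of all tested genes, 4.1% lower and 2.93% higher.

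Among guidance signals, Plxna1, a receptor for semaphorins, rose from 46 and 51 in DMSO to 84 and 89 in P+B (log2 change 0.82 ± 0.09, adjusted p = 0.00221). It was the 1 rise (7.14%) in its list of 14 tested genes, in which 2 fell (14.3%). Of 28 tested imprinted genes 2 fell (7.14%, against 4.1% of all genes) and 1 rose (3.57%, against 2.93%). The rise was of Peg3, a zinc finger gene expressed from the paternal allele, with 38 and 31 in DMSO and 61 and 63 in P+B (adjusted p = 0.00553). Hoxc13, a homeobox gene of hair follicles, had 6 and 6 in DMSO and 18 and 12 in P+B (adjusted p = 0.0246).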
